A study of Oryza sativa with 2 samples.

Results

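Chlorophyll (Chl) breakdown in rice leaves was followed through 7 genes, *NYC1*, *NOL*, *HCAR*, *SGR*, *NYC3*, *PAO* and *RCCR1*. They were taken by locus ID from a table of 42152 gene entries, in which each of the 7 IDs had 1 entry. The tested plants carried *yl-1*, a yellow-leaf mutation from an EMS-mutagenised library of the *indica* cultivar Zhongjiazao 17, and the wild-type (WT) was the same cultivar. In *yl-1*, 1 base is changed in the coding sequence of *YL-1*, which encodes a subunit of the Mg-protoporphyrin monomethyl ester cyclase of Chl synthesis. The mutation was found in a chemically mutagenised population, so other changes may be carried along with it. Leaves of 4-week-old plants gave 1 poly(A) RNA library per genotype, and the sample labels describe seedlings on half-strength MS medium at 26°C under 300 μmol m−2 s−1 of light. How many plants each library holds is not given in the sources used here.

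Chl b cannot enter the breakdown pathway as such and is first turned back into Chl a. *NYC1* (non-yellow coloring 1) and *NOL* (NYC1-like) encode the Chl b reductase, and in rice their proteins bind each other. *HCAR* encodes the reductase that takes the product, hydroxymethyl Chl a, on to Chl a. *SGR* (stay-green) encodes the protein that removes magnesium from Chl a, *NYC3* the pheophytinase that removes the phytol tail, *PAO* the oxygenase that opens the porphyrin ring, and *RCCR1* the reductase that makes the primary fluorescent catabolite (pFCC). Plants that lack *NYC1*, *NYC3* or *SGR* keep green leaves during senescence, hence the term stay-green.

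Values are FPKM, fragments per kilobase of transcript scaled by library size, as the authors computed them, so levels can be set side by side between genes. Which measure of library size was used was not established here. Each genotype has 1 library and so no replicate error or p-value, and every difference describes these libraries only. The number of reads is unknown, so no counting interval could be added. The FPKM values summed to 823855 in the *yl-1*-labelled library and 738866 in the WT-labelled library. The photosystem genes *PsbO*, *PsaL* and *PSI-N*, chosen as leaf markers, stood between 2212 and 5206 FPKM in both libraries. Other photosystem entries that the study names stood lower. In the *yl-1*-labelled library *Psb28* was at 485 FPKM, *PsbP* at 6.04 FPKM and *PsbR* at 0 FPKM. The WT-labelled library had them at 387, 4.01 and 7.70 FPKM. The study also names a Chl a-b binding protein gene, at 1181 FPKM in the *yl-1*-labelled library and 243 FPKM in the WT-labelled library.

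The genotype names are those of the deposited columns. A gene list among the supplementary material of the study carries them the other way round. Within 0.0051 FPKM, 18 of 24 values headed *yl-1* in that list equal the deposited WT column, 23 of 24 values headed WT equal the deposited *yl-1* column, and in 0 cases did a value match the column that bears its name. The other 6 values headed *yl-1* equal neither column and belong to synthesis genes before the *YL-1* step. They stand above the WT values of the list. Up to rounding, each of these 6 differs from the deposited WT value of its gene in the leading digit alone. Why they differ was not settled here, and exchanged headings alone do not account for the whole list. Which heading is right was not settled here, and the study's separate qRT-PCR measures were not used to decide it. *YL-1* itself had 1124 FPKM in the *yl-1*-labelled library, against 671 FPKM in the WT-labelled library. The 7 breakdown genes are not in that list, and the directions given below for them turn round if the deposited column names are the exchanged ones.

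The breakdown genes went both ways between the libraries, and none parted by 2-fold. *RCCR1* and *SGR* were lower in the *yl-1*-labelled library, at 65.9% and 71.6% of the WT reading. *HCAR* was the furthest on the other side, at 118% of the WT reading, and *PAO* at 101% stood level. Differences are given as log2((FPKM + 1) ratio) of *yl-1* over WT. By this measure 3 genes were above 0 and 4 below, ranging between -0.59 and 0.24 with a median of -0.067. All 7 passed a minimum mean of 1 FPKM, which 14559 entries met. Over those entries the median was 0.014 and 51.7% were above 0. Past 2-fold were 0 of the 7 genes, beside 6.15% of all entries in either direction (2.5% higher and 3.65% lower in the *yl-1*-labelled library). *RCCR1* alone passed 1.5-fold, by a small margin, beside 17.3% of all entries in either direction (7.71% higher and 9.57% lower). This did not hold under every scaling. With the libraries brought to the same upper quartile *RCCR1* was at -0.57 and no longer passed 1.5-fold, and with the same FPKM sum *SGR* passed it as well, at -0.63.

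**Figure D1:**
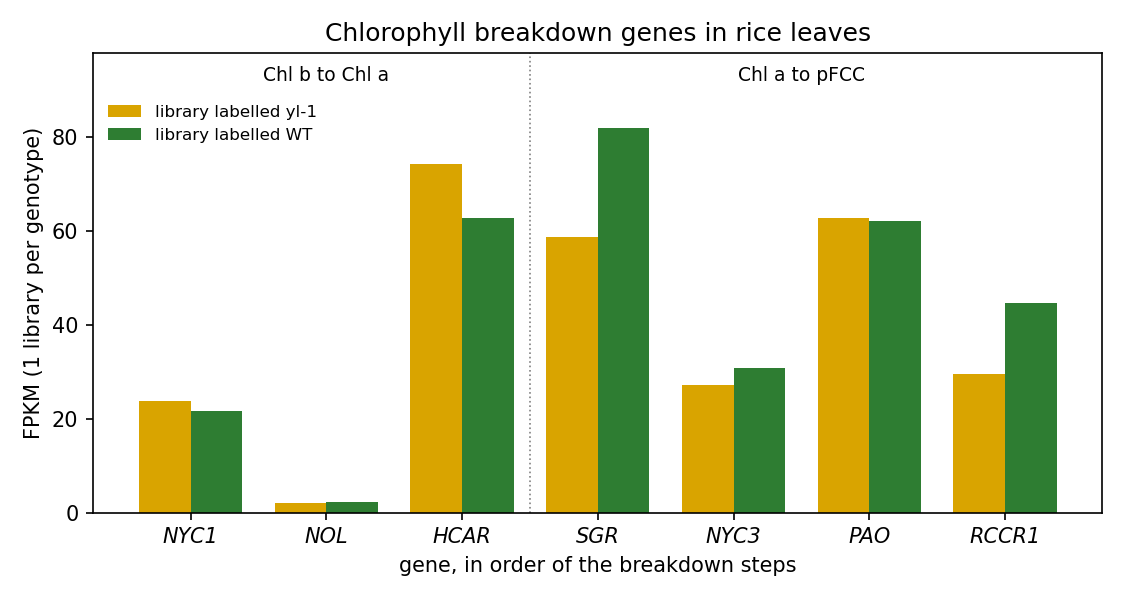
FPKM (vertical axis) of the 7 Chl breakdown genes in the *yl-1*-labelled library (left bar) and the WT-labelled library (right bar), 1 library each, in the order of the breakdown steps. *SGR* and *RCCR1* have the tallest gaps with the *yl-1* bar lower, *HCAR* has its *yl-1* bar at 74.3 against 62.8 FPKM for WT, and *NOL* is near 2 FPKM in both.

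At the first step, both Chl b reductase genes were close between the libraries but far from each other in level. *NYC1* (LOC_Os01g12710) was at 23.7 FPKM in the *yl-1*-labelled library and 21.7 FPKM in the WT-labelled library, a log2 ratio of 0.12. *NOL* (LOC_Os03g45194) was at 2.09 FPKM in the *yl-1*-labelled library and 2.23 FPKM in the WT-labelled library, with a log2 ratio of -0.067. *NOL* was thus the least abundant of the 7 genes in both libraries and the only one under 10 FPKM. *NYC1* exceeded it 11.4-fold in the *yl-1*-labelled library and 9.73-fold in the WT-labelled library, although their proteins act in 1 complex. *NOL* was also unremarkable beside other genes of its level. Of the 8514 entries with a mean of 1 to 10 FPKM, the middle 50% lay between -0.23 and 0.24.

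*HCAR* (LOC_Os04g25400), which completes the return to Chl a, was among the abundant breakdown genes. It stood at 74.3 FPKM in the *yl-1*-labelled library and 62.8 FPKM in the WT-labelled library, a log2 ratio of 0.24. Its transcripts exceeded the sum of *NYC1* and *NOL* by 2.88-fold in the *yl-1*-labelled library and 2.62-fold in the WT-labelled library. Together the genes of the Chl b to Chl a steps summed to 100.1 FPKM in the *yl-1*-labelled library and 86.7 FPKM in the WT-labelled library (log2 ratio 0.21), and *HCAR* supplied most of this sum in both.

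*SGR* (LOC_Os09g36200), at the entry to Chl a breakdown, showed the widest gap in FPKM of the 7 genes. It was at 58.7 FPKM in the *yl-1*-labelled library and 81.9 FPKM in the WT-labelled library, with a log2 ratio of -0.47. In the WT-labelled library it was the most abundant breakdown transcript, whereas in the *yl-1*-labelled library it came after *HCAR* and *PAO*. Among the 5100 entries with a mean of 10 to 100 FPKM, where 6 of the 7 genes lie, 77.8% had a smaller difference than *SGR* in either direction. The 5th and 95th percentiles of these entries were -0.80 and 0.63, and *SGR* lay between them.

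*NYC3* (LOC_Os06g24730), which acts next on pheophytin, was at 27.1 FPKM in the *yl-1*-labelled library and 30.8 FPKM in the WT-labelled library (log2 ratio -0.18). The ring-opening gene *PAO* (LOC_Os03g05310) had nearly the same reading in both, at 62.9 FPKM in the *yl-1*-labelled library and 62.2 FPKM in the WT-labelled library (log2 ratio 0.015). *PAO* therefore stood at 1.07 times *SGR* in the *yl-1*-labelled library and at 0.759 times *SGR* in the WT-labelled library. Such a ratio within a library does not depend on how the libraries are scaled.

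*RCCR1* (LOC_Os10g25030), at the last step, had the largest log2 difference of the 7 genes. It was at 29.5 FPKM in the *yl-1*-labelled library and 44.7 FPKM in the WT-labelled library, with a log2 ratio of -0.59. Of the entries with a mean of 10 to 100 FPKM, 85.0% had a smaller difference in either direction and 8.94% were lower still in the *yl-1*-labelled library. *RCCR1* kept the fourth place among the 7 genes in both libraries. The genes of the Chl a to pFCC steps summed to 178 FPKM in the *yl-1*-labelled library and 220 FPKM in the WT-labelled library (log2 ratio -0.30), of which 3 were lower and *PAO* was level.

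**Figure D2:**
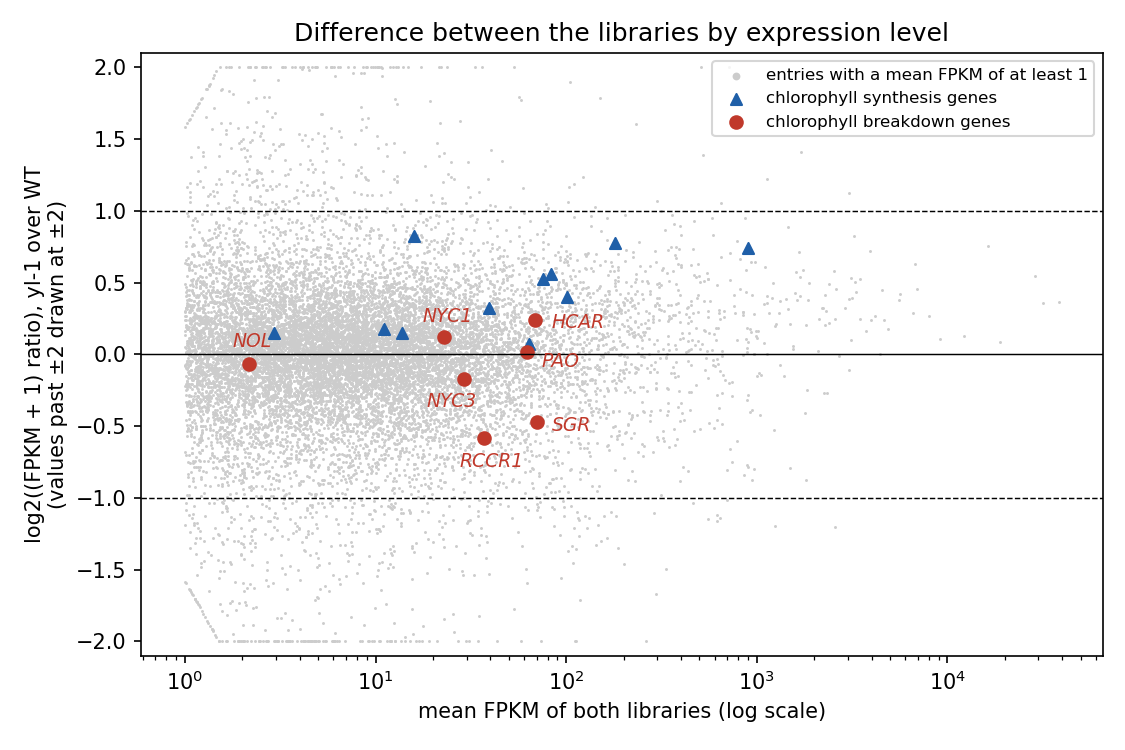
Log2((FPKM + 1) ratio), *yl-1* over WT (vertical axis, dashed lines at 2-fold), against the mean FPKM of both libraries (log axis) for all 14559 entries compared (grey), 11 Chl synthesis genes (triangles) and the 7 Chl breakdown genes (circles). The breakdown genes lie on both sides of 0 between -0.59 and 0.24, inside the grey cloud, while the 11 synthesis genes lie above 0.

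The make-up of the breakdown transcripts differed between the libraries in a few places. *HCAR* held 26.7% of the summed FPKM of the 7 genes in the *yl-1*-labelled library and 20.5% in the WT-labelled library. *SGR* held 21.1% in the *yl-1*-labelled library and 26.7% in the WT-labelled library. *RCCR1* held 10.6% in the *yl-1*-labelled library and 14.6% in the WT-labelled library. *NYC3* differed little, with 9.75% in the *yl-1*-labelled library and 10.04% in the WT-labelled library. The Chl b to Chl a genes had 0.562 times the summed FPKM of the Chl a to pFCC genes in the *yl-1*-labelled library, against 0.395 times in the WT-labelled library. The 7 genes summed to 278 FPKM in the *yl-1*-labelled library and 306 FPKM in the WT-labelled library.

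**Figure D3:**
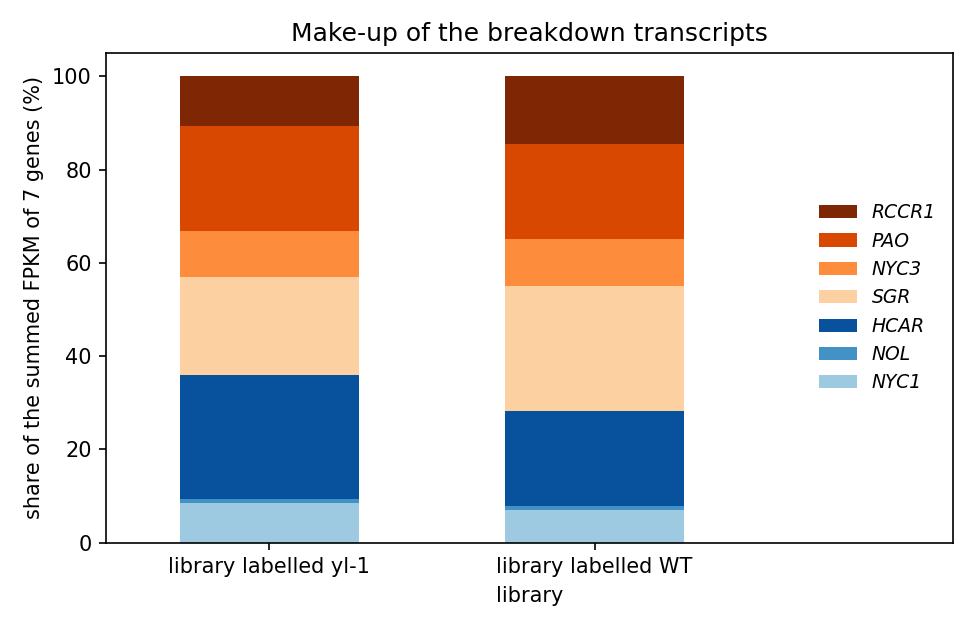
Share of the summed FPKM of the 7 Chl breakdown genes (vertical axis, %) held by each gene in the *yl-1*-labelled library (left) and the WT-labelled library (right). The *HCAR* part is 26.7% on the left and 20.5% on the right, and the *SGR* part 21.1% on the left and 26.7% on the right.

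Across all genes detected above 0, the breakdown genes were middling to abundant leaf transcripts. *HCAR* reached percentile 93.9 in the *yl-1*-labelled library and 93.2 in the WT-labelled library, and *SGR* 92.6 in the *yl-1*-labelled library and 94.6 in the WT-labelled library. *NOL* was at percentile 39.1 in the *yl-1*-labelled library and 42.9 in the WT-labelled library. In descending FPKM the *yl-1*-labelled library had *HCAR*, *PAO*, *SGR*, *RCCR1*, *NYC3*, *NYC1* and *NOL*, and the WT-labelled library had *SGR*, *HCAR*, *PAO*, *RCCR1*, *NYC3*, *NYC1* and *NOL*. Without replicates it cannot be said which neighbours in these orders differ beyond their spread.

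On the synthesis side of Chl turnover, of 11 synthesis genes that the study's list names, 11 had the higher FPKM in the *yl-1*-labelled library, with log2 ratios of 0.073 to 0.82 and a median of 0.40, and none passed 2-fold. The share above 0 was 51.7% over all entries compared. By mean FPKM it was 52.1% at 1 to 10, 49.6% at 10 to 100 and 57.5% at 100 to 1000, where the 11 genes lie. It was 82.8% over the 93 entries with a mean of at least 1000 FPKM, which include none of the 11. In the headings of the list itself, 6 of the 11 stand higher and 5 lower in *yl-1*, a split that the deposited columns give under neither naming. The 6 are the genes whose listed *yl-1* value differs from the deposited WT value in its leading digit. The study picked these genes on the same libraries, so they are no independent evidence of direction. *OsCAO1*, the oxygenase that makes Chl b and so opposes *NYC1* and *NOL*, was at 115 FPKM in the *yl-1*-labelled library and 86.9 FPKM in the WT-labelled library. Its level was 4.45 times the sum of *NYC1* and *NOL* in the *yl-1*-labelled library and 3.63 times in the WT-labelled library. *OsCAO1* had a log2 ratio of 0.40, and *HCAR*, *NYC1* and, barely, *PAO* (0.015) were on the same side of 0. *SGR*, *RCCR1*, *NYC3* and *NOL* were on the other side. The Chl b reductase genes *NYC1* (0.12) and *NOL* (-0.067) thus fell on different sides, both by a small difference. Whether breakdown and synthesis genes differ as groups was not tested.

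Rescaling the libraries turned the sign of small differences only. When both libraries were brought to the same FPKM sum, which moved the median of all compared entries to -0.12, *NYC1* turned to -0.027 and *PAO* to -0.14, and *HCAR* alone stayed above 0 with 0.085. Under that scaling *SGR* was at -0.63 and *RCCR1* at -0.74, and 10 of the 11 synthesis genes were still above 0, *HEME2* having turned. *PAO* also turned, to -0.0014, when the 100 most abundant entries were left out of the sum. *SGR*, *RCCR1*, *NYC3* and *NOL* stayed below 0 and *HCAR* above 0 under every pseudocount and scaling that was run with the columns named as deposited.

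**Figure D4:**
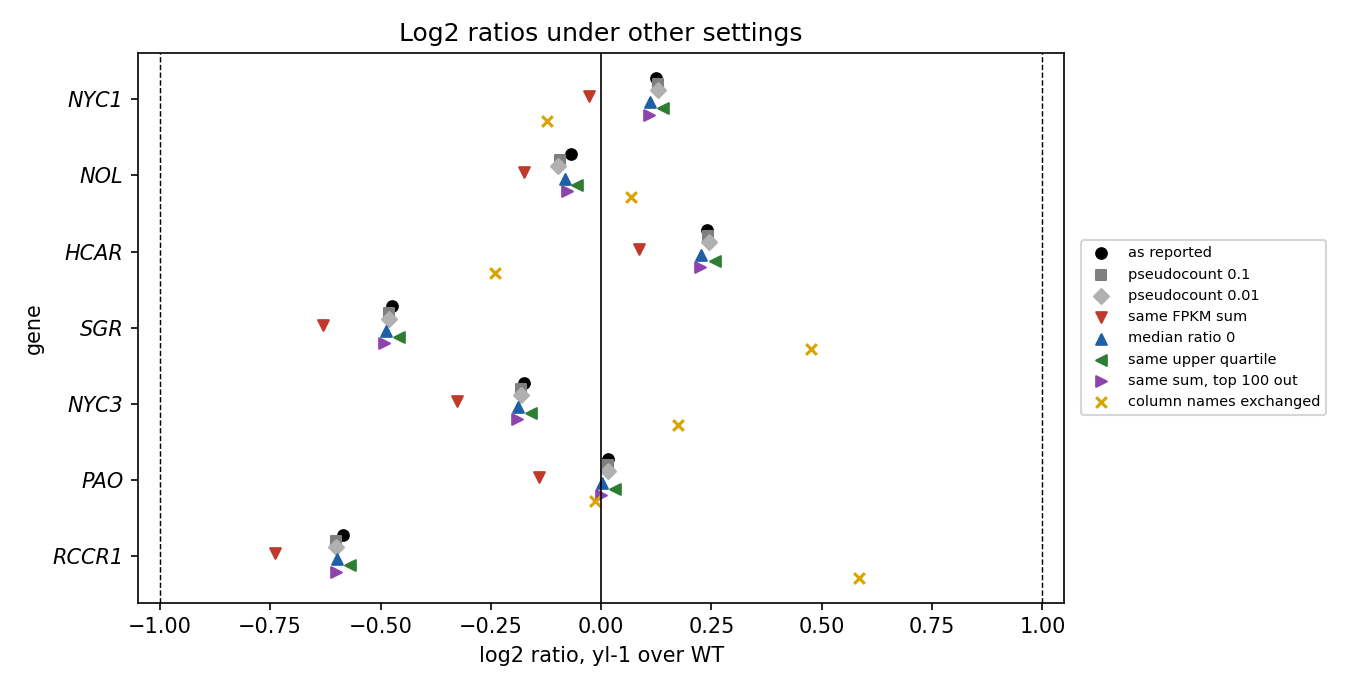
Log2 ratio of *yl-1* over WT (horizontal axis, dashed lines at 2-fold) of the 7 Chl breakdown genes as reported, with other pseudocounts and scalings, and with the column names exchanged (crosses). *SGR* spans -0.63 to -0.46 and *RCCR1* -0.74 to -0.57 with the names as deposited, while the points of *PAO* lie at both sides of 0.

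The 7 loci lie on 6 chromosomes by their IDs, with *NOL* and *PAO* both on chromosome 3. Entries at neighbouring loci were looked at, 5 with a mean of at least 1 FPKM on each side of every gene. Around *RCCR1*, 7 of these 10 were higher and 3 lower in the *yl-1*-labelled library, between -0.17 and 0.85, so *RCCR1* lay below them all. Around *SGR* 7 were higher and 3 lower, with a median of 0.19 and a range from -1.27 to 0.32, so *SGR* did not lie below them all. Around *PAO*, which was itself level, the neighbours ran from -3.29 to 1.75, and all 10 differed more than *PAO* did. Around *NYC1* 2 were higher and 8 lower, around *NOL* 5 and 5, around *HCAR* 7 and 3, and around *NYC3* 4 and 6. Of the 7 genes looked at in this way, *RCCR1* alone lay outside the range of its neighbours.

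With only a single ratio per gene, likeness of pattern between genes says little. Within 0.05 of the log2 ratio of *PAO* there were 1748 entries, and within 0.05 of that of *RCCR1* there were 376. Among the 24 genes that the study's list names, the closest to *HCAR* was *PSI-N* (0.25) and the closest to *NYC1* was *HEMF1* (0.15). For both *SGR* and *RCCR1* it was *OsClpD1*, of the Clp protease system in chloroplasts, at -0.95. That is well outside 0.05 of their -0.47 and -0.59. Besides *PsbR* (-3.12) it was the only gene of that list below 0, so it shows no likeness.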

How the data were processed

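Leaf mRNA of 1 *yl-1* and 1 WT plant sample was compared. The authors deposited FPKM values for both libraries, for which the submitters' processing notes name TopHat, Cufflinks and Cuffdiff. Tool versions, build, annotation, strand setting and read totals were not given in the sources used here. Columns were assigned by their names, and 0 columns of values were left unused. Members were found by locus ID. Their names came with the gene list, and 0 of 41981 IDs matched the RefSeq table of assembly ASM3414082v1, which lists *NYC1*, *NOL*, *SGR* and *RCCR1* as synonyms, each on the chromosome of its ID here. The members and lists were chosen with earlier results of these data known.

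Entries that averaged at least 1 in the deposited FPKM were compared as log2((FPKM + 1) ratio), and those past 2-fold were counted. Stages were compared by summed FPKM. No test was possible with 1 library per genotype. Neighbouring loci, stage ratios, the ratio of *HCAR* to *NYC1* plus *NOL* and shares of the summed FPKM were chosen after the data were seen. Named genes were the members, the synthesis genes and leaf markers of the study's list, and its gene closest in log2 ratio to a member. Other breakdown candidates, whose IDs no source pairs with a name, were not analysed. The calculation was tested on simulated data. Alternatives were other pseudocounts, filters, scalings and thresholds, the mean of the list, and exchanged column names. Python 3.11.15, numpy 2.4.6, pandas 2.3.3 and matplotlib 3.10.9 were used.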

Additional observations from a re-analysis of the deposited data

How the results depend on the processing

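Pseudocounts of 0.1 and 0.01, a minimum mean of 5 FPKM, no minimum and the scalings by median, by upper quartile and by the sum without the 100 most abundant entries left the counts of genes and the summed stages near their reported values. In these, 2 or 3 genes stood above 0 and 0 passed 2-fold. Scaling to the same FPKM sum left 1 gene above 0 and moved the median of the 7 genes to -0.17, the Chl b to Chl a steps to 0.050 and the Chl a to pFCC steps to -0.46. With the column names exchanged, the median was 0.067, the Chl b to Chl a steps were at -0.21 and the Chl a to pFCC steps at 0.30. A 1.5-fold threshold called 1 gene, *RCCR1* (not at the same upper quartile, and joined by *SGR* at the same FPKM sum), and the mean of the list was -0.13. Of 42 single-gene values under these pseudocounts and scalings, 39 kept their sign and 3 turned. No paired analysis was possible because each genotype has 1 library. The 3 that turned were *NYC1* once and *PAO* in the other cases, so their direction depends on the scaling.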
